A study of Mus musculus with 8 samples.

Results

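Mitochondrial ribosomal proteins were taken as every gene of the table whose symbol is Mrpl or Mrps followed by a digit, pseudogene symbols left out. The rule found 77 genes among 23818 symbols, and all 77 were measured in every library and entered every test. Most of these genes encode parts of the large subunit (50 genes, among them Mrps30 and Mrps18a in spite of their symbols) or of the small subunit (26 genes), while Mrps36 was assigned to neither.

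The mitochondrial ribosome translates the few proteins that mitochondrial DNA encodes, all of them parts of the respiratory chain and the ATP synthase. Its rRNA comes from mitochondrial DNA, but its proteins are encoded in the nucleus, translated by cytosolic ribosomes and imported. Some descend from bacterial ribosomal proteins and others exist only in mitochondria. Footprints on the mRNAs described here therefore come from cytosolic ribosomes.

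The cells were mouse embryonic stem cells of the J1 strain, either a Mettl6 knockout (KO, clone G6) or wild type (WT). METTL6 is a tRNA methyltransferase that makes 3-methylcytidine. Both genotypes were grown with 2i and LIF and received cycloheximide, which arrests elongating ribosomes, for 10 min before lysis. Total RNA and ribosome footprints (RNA left after digestion with RNases A and T1, from ribosomes collected on a sucrose gradient) were each sequenced in 2 KO and 2 WT libraries, 8 libraries in 4 groups. The knockout is a single clone, so the deletion and the history of the clone cannot be told apart. A suffix in the titles sets the WT total RNA libraries apart from the KO ones, and what it stands for is not given.

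Values are CPM, each gene's reads as a share of its library. The worth of 1 read in CPM gave a depth of 1301531 and 1524097 reads in KO total RNA and 2031518 and 1957674 reads in WT total RNA. Footprint libraries held 2437859 and 1835677 reads in KO cells and 2960255 and 2124895 reads in WT cells. A member had a median of 37 and 49 reads in KO total RNA and of 85 and 71 reads in WT total RNA, so the KO libraries are the less precise ones. Mettl6 itself stood at 2.31 CPM and was listed at 0 in KO total RNA, against 25.6 and 27.1 CPM in WT total RNA. Its footprints overlapped, at 5.33 and 4.36 CPM in KO and 3.38 and 6.59 CPM in WT cells, so they do not check the label of the KO footprint libraries. Markers of pluripotent cells summed to 4898 and 5214 CPM in KO and 5813 and 5453 CPM in WT total RNA. Single markers went both ways. Nanog had 740 and 736 CPM in KO against 1309 and 1211 CPM in WT total RNA, and Tfcp2l1 1439 and 1332 CPM against 1142 and 1096 CPM. In total RNA 8 fibroblast markers summed to 9.19 to 23.8 CPM in KO and 8.68 to 12.8 CPM in WT. Of these, Col3a1, Dcn and Lum were at 0 in every library, and Thy1, Pdgfra and Pdgfrb were above 0 in every library. The part of this difference in marker sums in any result below was not tested.

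Changes are given as KO minus WT on the log2(CPM + 1) scale, from limma-trend fitted across all tested genes, and a gene was called at an adjusted p (Benjamini-Hochberg) below 0.05. In total RNA 10 members fell and 1, Mrps18b, rose in KO cells, where the same test called 7.03% of all 13222 genes lower and 6.57% higher. In footprints 9 members fell and 2, Mrps18b and Mrpl23, rose, where 8.28% of all 11624 genes were called lower and 10.7% higher. Mrpl10, Mrpl45, Mrps7, Mrps24, Mrps25 and Mrps35 were lower in both kinds of library.

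Summed over the 77 members, total RNA came to 2647 and 3005 CPM in KO and 3745 and 3358 CPM in WT cells. Both KO sums lay below both WT sums, and the second KO library lay nearest to WT. Summed footprints came to 2809 and 2572 CPM in KO and 2824 and 2987 CPM in WT cells, so the groups did not overlap there either, by a small margin. With the rRNA precursor Rn45s left out of the library totals, the gap was wider, at 4552 and 4479 CPM in KO and 5261 and 5089 CPM in WT footprints. The cytosolic sums that follow keep Rn45s in the totals. The 92 ribosomal proteins of the cytosol summed to 61235 and 69135 CPM in KO and 77980 and 69296 CPM in WT total RNA, and to 53746 and 48512 CPM in KO and 48311 and 54016 CPM in WT footprints. In these bulk libraries fewer expressing cells and less RNA per cell cannot be told apart.

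Of the 77 members, 62 had a negative change in total RNA, with a median of −0.42 against −0.04 over all tested genes. Genes with transcripts as long as the middle 50% of the members had a median of −0.13, and genes with a mean CPM in the members' middle range had −0.07. The median of the members ran from −0.56 (first KO against first WT library) to −0.20 (second against second) over the 4 pairings of libraries. In footprints 51 members had a negative change, with a median of −0.22 against −0.05 over all tested genes. Both KO libraries lay below both WT libraries for 39 members in total RNA (50.6%, against 29.8% of all genes) and above them for 5 (6.49%, against 26.4%). The same held in footprints for 35 members below (45.5%, against 30.7%) and 10 above (13%, against 26.9%).

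The calls depend on the number of libraries. With any 1 of the 4 total RNA libraries left out of their own fit, 0 members were called lower, as were 0 to 220 of all genes. In the fit of all 8 libraries, the members' median in total RNA was −0.29 without the first KO and −0.50 without the second KO total RNA library. It was −0.38 without the first WT and −0.475 without the second WT total RNA library. The median of all genes was −0.04, −0.08, −0.03 and −0.12, in the same order. In footprints the members' median ran from −0.252 to −0.0472 with any 1 library left out.

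**Figure D1:**
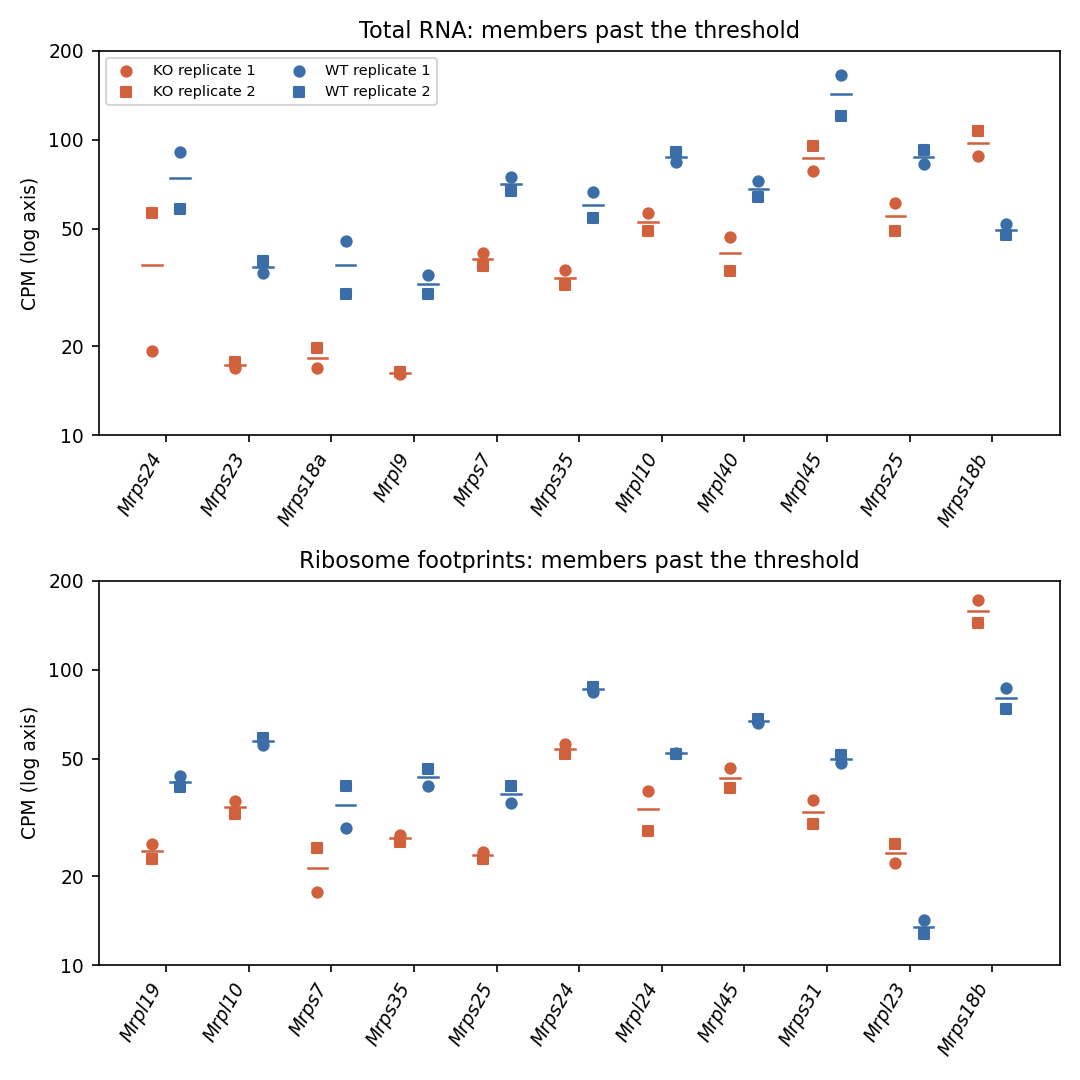
CPM on a log axis of every member past the threshold in total RNA (top) and in footprints (bottom), with KO libraries (orange) left of WT libraries (blue), circles for replicate 1, squares for replicate 2 and short lines for the mean of 2 libraries. Mrps18b is the only member called higher in both panels, and the KO points lie below the WT points for every member called lower.

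The promoter windows of 4 members are printed here, because Mrps18b is the member called higher in both kinds of library, Mrps24 is called lower in both, Mrps18a is called lower in total RNA alone, and Mrps12 lies beside a divergent gene of the same system. The windows run from 250 bases before to 50 bases after the RefSeq start (GRCm38.p6), read 5′ to 3′ in the direction of the gene. Mrps18b lies on the minus strand (chr17:35916391-35916690), Mrps24 on the minus strand (chr11:5707652-5707951), Mrps18a on the plus strand (chr17:46110754-46111053) and Mrps12 on the minus strand (chr7:28741772-28742071). Capitals mark matches, on either strand, to an ETS core (CCGGAAG), a YY1 core (AAGATGGC) or the palindromic core of the NRF1 motif (CGCATGCG).
Mrps18b: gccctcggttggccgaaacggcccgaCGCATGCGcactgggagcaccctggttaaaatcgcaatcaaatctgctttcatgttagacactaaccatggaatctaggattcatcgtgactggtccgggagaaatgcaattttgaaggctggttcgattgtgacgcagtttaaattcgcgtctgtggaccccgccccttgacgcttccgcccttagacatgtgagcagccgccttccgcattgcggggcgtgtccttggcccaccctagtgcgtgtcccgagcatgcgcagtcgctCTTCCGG
Mrps24: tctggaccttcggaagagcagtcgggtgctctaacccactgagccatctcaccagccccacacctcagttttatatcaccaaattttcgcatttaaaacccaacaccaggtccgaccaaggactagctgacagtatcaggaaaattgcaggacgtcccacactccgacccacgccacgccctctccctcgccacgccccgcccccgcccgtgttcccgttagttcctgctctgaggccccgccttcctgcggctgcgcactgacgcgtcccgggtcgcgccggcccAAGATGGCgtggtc
Mrps18a: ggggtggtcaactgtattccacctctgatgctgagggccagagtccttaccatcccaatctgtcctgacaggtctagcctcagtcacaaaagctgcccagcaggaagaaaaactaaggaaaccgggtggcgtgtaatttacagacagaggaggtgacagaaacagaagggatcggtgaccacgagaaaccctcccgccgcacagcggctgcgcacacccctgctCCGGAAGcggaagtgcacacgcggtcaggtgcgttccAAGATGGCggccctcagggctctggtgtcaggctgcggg
Mrps12: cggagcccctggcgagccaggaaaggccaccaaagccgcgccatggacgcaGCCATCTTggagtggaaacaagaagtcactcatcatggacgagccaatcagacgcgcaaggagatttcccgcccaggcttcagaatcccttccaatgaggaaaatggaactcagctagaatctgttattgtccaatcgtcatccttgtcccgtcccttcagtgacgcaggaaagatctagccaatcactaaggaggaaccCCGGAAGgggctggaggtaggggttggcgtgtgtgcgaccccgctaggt

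Mrps18b holds an NRF1 match at position −224, counted from its RefSeq start, and an ETS match that begins at base 44 after it. The YY1 match of Mrps24 begins at base 37 after its start. Mrps18a holds an ETS match starting 26 bases before its start, at position −26, and a YY1 match starting at base 12 after it. Mrps12 holds an ETS match at base 2 after its start and a YY1 match at position −199. ETS factors, YY1 and NRF1 are known as activators of nuclear genes for mitochondrial proteins. A match is a stretch of letters and does not show binding.

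RefSeq gave a window for 68 of the 77 members, and 9 had none. The ETS core was present in 24 of the 68 windows (35.3%), against 8.86% of all 32851 RefSeq windows and 16.9% of the 12613 windows of genes tested in total RNA. The YY1 core was present in 12 (17.6%, against 2.75% and 4.27%) and the NRF1 core in 7 (10.3%, against 1.87% and 3.82%). The CCAAT letters stood in 39.7% of members' windows, against 37.4% and 38.2%, and the GC box (GGGCGG) in 48.5%, against 35.7% and 62%. Both strands were searched and overlapping matches were allowed. Of the 11 windows of members called lower in total RNA or footprints, 2 held the ETS core, 3 the YY1 core and 2 the NRF1 core (Mrpl9 and Mrpl10).

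The stalk of the large subunit recruits translation factors. Mrpl10 (chromosome 11, 97041560 to 97049213), which anchors the stalk, had 56.4 and 49.2 CPM in KO total RNA against 84.2 and 90.9 CPM in WT total RNA. Its footprints were 36.0 and 32.5 CPM in KO and 55.5 and 58.7 CPM in WT cells. The groups did not overlap in either kind of library, and the change was −0.72 in total RNA (SE 0.195, limma-trend adjusted p = 0.0198) and −0.72 in footprints (SE 0.202, adjusted p = 0.00903). Mrpl12, which binds to Mrpl10, had 40.7 and 38.1 CPM in KO against 55.1 and 58.2 CPM in WT total RNA, and did not pass the threshold (change −0.51, limma-trend adjusted p = 0.136). Mrpl11, at the base of the stalk, had 26.9 and 34.8 CPM in KO against 48.2 and 46.5 CPM in WT total RNA, with no overlap, and did not pass either (change −0.61, limma-trend adjusted p = 0.113).

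Mrpl45 (chromosome 11), which ties the large subunit to the inner membrane, had 78.4 and 95.1 CPM in KO against 165.9 and 120.0 CPM in WT total RNA, and 46.6 and 39.6 CPM in KO against 65.9 and 68.1 CPM in WT footprints. It was lower in both (−0.70, SE 0.187, limma-trend adjusted p = 0.0186 in total RNA, and −0.63, SE 0.195, adjusted p = 0.0192 in footprints). Mrpl24 (chromosome 3), at the rim of the tunnel, had 39.0 and 28.3 CPM in KO against 52.4 and 51.8 CPM in WT footprints and was lower there (−0.63, SE 0.21, limma-trend adjusted p = 0.0297). With any 1 library left out this change ran from −0.85 to −0.41, and it passed in 3 of 12 such fits (4 of the footprint libraries alone and 8 of all libraries). Its total RNA was 29.6 and 35.7 CPM in KO and 57.5 and 43.3 CPM in WT cells, which did not overlap but did not pass the threshold (limma-trend adjusted p = 0.12).

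Mrpl23, also at the rim of the tunnel, is 1 of the 2 members called higher in footprints. It had 22.1 and 25.6 CPM in KO against 14.2 and 12.7 CPM in WT footprints (0.78, SE 0.257, limma-trend adjusted p = 0.0276). Its total RNA values overlapped, at 24.6 and 21.6 CPM in KO and 29.5 and 13.8 CPM in WT cells. Transcripts of other genes share 67.8% of the words of 25 bases in its transcript, most of them with the pseudogene Mrpl23-ps1, so how its reads were assigned is uncertain. With any 1 library left out, the footprint change of Mrpl23 stayed between 0.68 and 0.88 and passed the threshold in 0 of 12 such fits.

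Other large-subunit members called were Mrpl19, Mrpl9, Mrpl40 and Mrps18a. Mrpl19 (chromosome 6), which has a bacterial counterpart, had 25.7 and 22.9 CPM in KO against 43.6 and 39.9 CPM in WT footprints, the most negative footprint change of all members (−0.76, SE 0.218, limma-trend adjusted p = 0.0113). Mrpl9 (chromosome 3), also with a bacterial counterpart, had 16.1 and 16.4 CPM in KO against 34.9 and 30.1 CPM in WT total RNA (−0.95, SE 0.301, limma-trend adjusted p = 0.0447). Mrpl40 (chromosome 16), specific to mitochondria, had 46.9 and 36.1 CPM in KO against 72.4 and 63.8 CPM in WT total RNA (−0.71, SE 0.221, limma-trend adjusted p = 0.0412). Mrpl9 and Mrpl40 did not pass in footprints, where Mrpl9 had a change of −0.61 and Mrpl40 of −0.12.

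Mrpl44, which resembles a bacterial ribonuclease, and Mrps30, a large-subunit protein specific to mitochondria, did not pass in either kind of library. Mrpl44 had 33.0 and 22.3 CPM in KO against 27.6 and 18.9 CPM in WT total RNA. Mrps30 had 43.8 and 63.0 CPM in KO against 68.4 and 60.8 CPM in WT total RNA. The groups overlapped for both genes.

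In the small subunit, 5 members fell in total RNA. Mrps7 (chromosome 11), a core protein of the subunit's head, had 41.5 and 37.4 CPM in KO against 74.8 and 66.9 CPM in WT total RNA (−0.83, SE 0.213, limma-trend adjusted p = 0.0154) and 17.6 and 24.9 CPM in KO against 29.1 and 40.5 CPM in WT footprints (−0.68, limma-trend adjusted p = 0.0397). The change in footprints ran from −0.92 to −0.45 with any 1 library left out and passed in 4 of 12 such fits. Mrps24 (chromosome 11), the counterpart of bacterial S3 at the mRNA entrance, had 19.2 and 56.4 CPM in KO against 90.6 and 58.2 CPM in WT total RNA. The second KO and the second WT library were close, so its change of −1.11, the most negative of all members (SE 0.355, limma-trend adjusted p = 0.0467), rests on the first libraries and ran from −1.87 to −0.36 when any 1 library was left out. Its footprints were closer within each genotype, at 56.2 and 51.8 CPM in KO and 84.1 and 87.5 CPM in WT cells (−0.66, SE 0.186, limma-trend adjusted p = 0.00945). That call still depended on which libraries were in the fit, as did the footprint calls of Mrps25, Mrps35 and Mrps31 below.

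Mrps25, Mrps35, Mrps23 and Mrps31 are specific to mitochondria. Mrps25 (chromosome 6) had 61.1 and 49.2 CPM in KO against 82.8 and 92.1 CPM in WT total RNA (−0.66, limma-trend adjusted p = 0.0346), and 24.2 and 22.9 CPM in KO against 35.5 and 40.5 CPM in WT footprints (−0.66, adjusted p = 0.0305). Mrps35 (chromosome 6) had 36.1 and 32.1 CPM in KO against 66.5 and 54.1 CPM in WT total RNA (−0.80, limma-trend adjusted p = 0.0284), and 27.5 and 26.1 CPM in KO against 40.5 and 46.1 CPM in WT footprints (−0.67, adjusted p = 0.024). Mrps31 (chromosome 8) was called in footprints alone, at 36.1 and 30.0 CPM in KO and 48.3 and 51.3 CPM in WT cells (−0.58, limma-trend adjusted p = 0.0431), while its total RNA change was also −0.58 (adjusted p = 0.102). Among the called members, the exons of Mrps25 overlap those of Nr2c2 over 4590 bases, those of Mrpl19 overlap Gcfc2 over 1962, those of Mrpl24 overlap Rrnad1 over 594, those of Mrps24 overlap Urgcp over 226, those of Mrpl9 overlap Oaz3 over 157 and those of Mrps7 overlap Gga3 over 127. Whether the counting used strand is not given in the sources used here.

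Mrps23 (chromosome 11) was called in total RNA alone. It had 16.9 and 17.7 CPM in KO against 35.4 and 38.8 CPM in WT total RNA, groups that were tight and far apart (−1.06, SE 0.287, limma-trend adjusted p = 0.0205). Its footprints were 18.9 and 16.9 CPM in KO and 19.9 and 22.6 CPM in WT cells (−0.24, adjusted p = 0.563). No other gene shares words of 25 bases with Mrps23, at 0%.

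Mammals have 3 homologs of bacterial S18, and they went different ways. Mrps18b rose: it had 88.4 and 106.9 CPM in KO against 51.7 and 47.5 CPM in WT total RNA, and 172.3 and 143.3 CPM in KO against 86.8 and 73.4 CPM in WT footprints. Mean CPM was 1.97-fold higher in KO cells in both kinds of library (change 0.96, SE 0.196, limma-trend adjusted p = 0.00345 in total RNA, and 0.97, SE 0.177, adjusted p = 0.000105 in footprints). Mrps18a, the homolog of the large subunit, had 16.9 and 19.7 CPM in KO against 45.3 and 30.1 CPM in WT total RNA and was lower there (−0.98, SE 0.302, limma-trend adjusted p = 0.0392). Its footprints overlapped, at 26.7 and 25.1 CPM in KO and 26.7 and 21.6 CPM in WT cells (0.10, adjusted p = 0.818). Mrps18c had 23.1 and 26.9 CPM in KO against 33.5 and 22.5 CPM in WT total RNA, groups that overlapped (−0.14, limma-trend adjusted p = 0.819).

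The neighbours of Mrps18b on chromosome 17 were looked at after its values were seen. Of 15 genes that start within 100 kb of it and have a mean of at least 5 CPM in total RNA, 4 were called higher in total RNA and 3 in footprints, Mrps18b included, and 0 lower in either. Over all tested genes 6.57% were called higher in total RNA and 10.7% in footprints. Mrps18b was picked for its own calls, so it adds to both counts by choice. Ppp1r10, a regulatory subunit of protein phosphatase 1 that runs in the opposite direction from the shared promoter region, had 101.4 and 117.0 CPM in KO against 62.6 and 54.7 CPM in WT total RNA (0.88, limma-trend adjusted p = 0.00433), but its footprints did not pass (0.26, adjusted p = 0.37). Dhx16, an RNA helicase of pre-mRNA splicing, had 205.1 and 219.8 CPM in KO against 112.2 and 118.5 CPM in WT total RNA (0.88, limma-trend adjusted p = 0.000806) and rose by 0.88 in footprints too (adjusted p = 0.000209). Prr3 was called in total RNA alone (1.34, adjusted p = 0.0349) and Nrm in footprints alone (0.98, adjusted p = 0.000504), while Abcf1 and Atat1 had total RNA changes of 0.04 and −0.03. Transcripts of other genes, mainly Gm13552, share 35% of the words of the Mrps18b transcript.

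**Figure D2:**
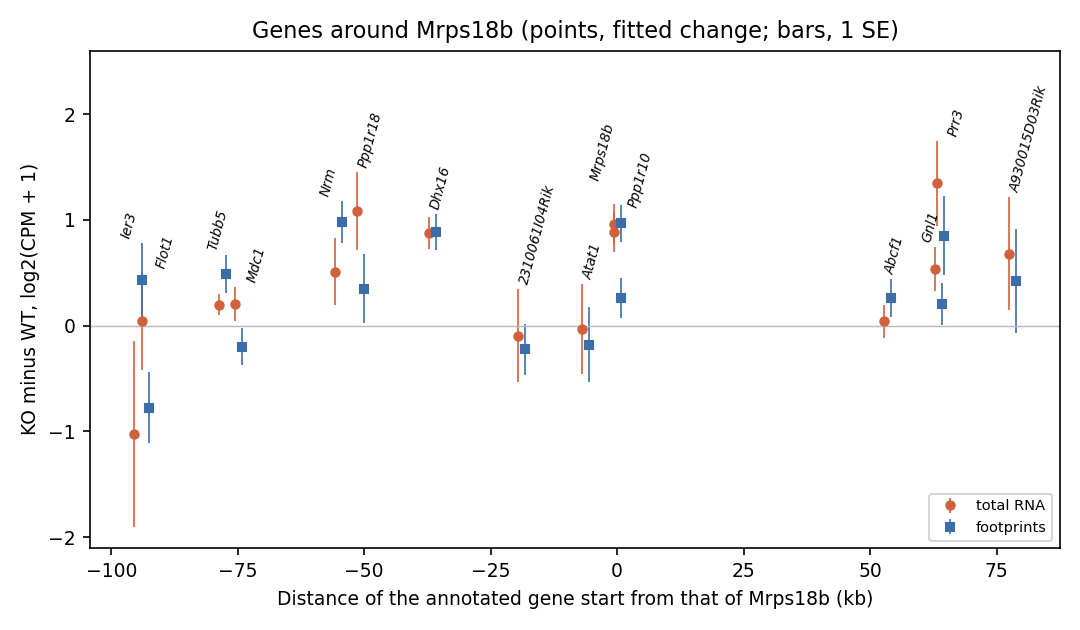
Fitted change between KO and WT (log2(CPM + 1), bars 1 SE) in total RNA (orange circles) and footprints (blue squares) of the 15 genes that start within 100 kb of Mrps18b, against distance in kb. Mrps18b and Dhx16 lie near 0.9 in both kinds of library, Ppp1r10 at 0.88 in total RNA and 0.26 in footprints, and Atat1, between Dhx16 and Mrps18b, at −0.03 in total RNA and −0.18 in footprints.

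Mrps12, a protein of the decoding centre, was not called in either kind of library. It had 14.6 and 21.6 CPM in KO against 21.2 and 23.5 CPM in WT total RNA, values that overlapped, and 59.9 and 62.6 CPM in KO against 64.5 and 56.9 CPM in WT footprints. Its divergent neighbour Sars2, the mitochondrial seryl-tRNA synthetase, had 13.1 and 19.0 CPM in KO against 20.7 and 14.8 CPM in WT total RNA. Mrps11 and Mrpl46, which start 42 bases apart in opposite directions, had total RNA changes of −0.21 and −0.27 (limma-trend adjusted p = 0.722 and 0.641).

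By role, 5 of 50 large-subunit members (10.0%) fell and 0 rose in total RNA, with a median of −0.40. Of 26 small-subunit members, 5 (19.2%) fell and 1 rose, with a median of −0.44. Over all tested genes, 7.03% were called lower and 6.57% higher in total RNA. In footprints the counts were 4 lower (8.0%) and 1 higher in the large subunit (median −0.20). They were 5 lower (19.2%) and 1 higher in the small subunit (median −0.21). Over all tested genes, 8.28% were called lower and 10.7% higher in footprints. All lower calls of the small subunit, in both kinds of library, lie on chromosomes 6, 8 and 11. On these chromosomes 20.5% of all tested genes were called lower in total RNA and 26.6% in footprints. Among 28 members specific to mitochondria 5 fell in total RNA (17.9%) and 4 in footprints (14.3%), with medians of −0.48 and −0.31. Of these called genes, Mrpl40 alone lies outside chromosomes 6, 8 and 11. Among 45 members with a bacterial counterpart 4 fell in total RNA (8.89%) and 5 in footprints (11.1%), and 1 rose in footprints (medians −0.34 and −0.10). The other 4 (Mrps18a, Mrps18b, Mrpl55 and Mrps36) were assigned to neither origin, so these counts leave out the fall of Mrps18a and the rise of Mrps18b.

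Position in the genome went with the change. Genes of chromosomes 6, 8 and 11 were lower in KO cells across the whole table, with a median of −0.42 in total RNA (2433 genes) and −0.44 in footprints (2173 genes), against 0.03 and 0.02 for genes elsewhere. These chromosomes were grouped because their low medians had been seen, and they hold 19 members. The 19 are Mrpl19, Mrpl35, Mrpl51, Mrpl53, Mrps25, Mrps33 and Mrps35 on chromosome 6, Mrpl34 and Mrps31 on chromosome 8, and Mrpl10, Mrpl12, Mrpl22, Mrpl27, Mrpl38, Mrpl45, Mrpl55, Mrps7, Mrps23 and Mrps24 on chromosome 11.

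All 19 had a negative change in total RNA (median −0.66) and 18 in footprints (median −0.52), with Mrpl34 the exception. They held 7 of the 10 lower calls in total RNA and 8 of the 9 in footprints. Of all tested genes on these chromosomes, 20.5% were called lower in total RNA and 26.6% in footprints, beside 36.8% and 42.1% of these 19 members. The 58 members of other chromosomes held 3 lower calls (Mrpl9, Mrpl40 and Mrps18a) and 1 higher call in total RNA, with a median of −0.30 against 0.03 for all genes there. In footprints they held 1 lower call (Mrpl24) and 2 higher calls, with a median of −0.05 against 0.02. Their shares called lower, 5.17% in total RNA and 1.72% in footprints, stood beside 4.0% and 4.07% of all tested genes of those chromosomes, near the background in total RNA and below it in footprints.

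With each chromosome's median change removed, 3 members (Mrpl9, Mrpl40 and Mrps18a) and 576 of all 13222 genes were lower in total RNA. In footprints 1 member, Mrpl24, was lower. The same members were called with the genes of chromosomes 6, 8 and 11 left out of the fit. The median of all 77 members was then −0.28 in total RNA and −0.08 in footprints. Mrps18b stayed higher in both kinds of library and Mrpl23 in footprints under both settings. The members that fell in both kinds of library all lie on chromosome 6 or 11, and none of these 6 passed once the chromosome medians were removed, where Mrpl10 for example had −0.28 in total RNA (adjusted p = 0.37).

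**Figure D3:**
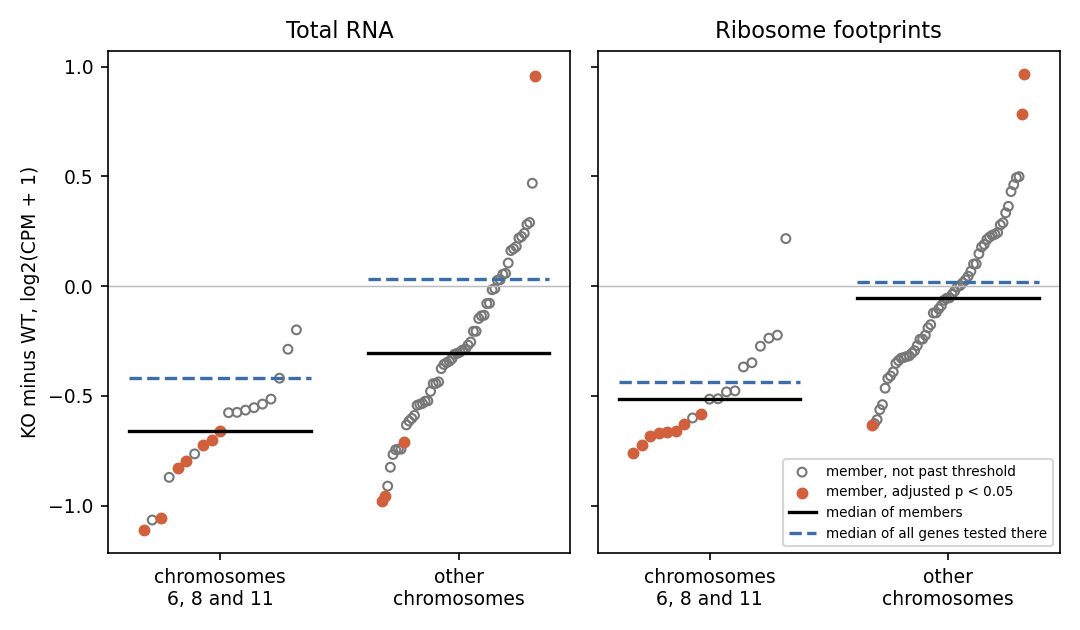
Fitted change between KO and WT (log2(CPM + 1)) of each member in total RNA (left) and footprints (right), for the 19 members on chromosomes 6, 8 and 11 and the 58 members elsewhere. Filled points passed the threshold, black lines are the members' medians and dashed blue lines the medians of all genes tested on those chromosomes, from −0.66 and −0.42 in total RNA on chromosomes 6, 8 and 11 to −0.05 and 0.02 in footprints elsewhere.

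Translational efficiency, the ratio of footprints to total RNA, was compared between genotypes in a model of all 8 libraries. No member passed the threshold (0 of 77, where 7 of 11364 genes, 0.0616%, were called). At an unadjusted p below 0.05 there were 5 members, 4 higher and 1 lower in KO cells, where 8.91% of all genes had such a p. The change was positive for 53 members, with a median of 0.22 against 0.07 over all genes. It was 0.56 between the first KO and first WT libraries and −0.07 between the second ones, where all genes had 0.24 and −0.11.

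The 5 members with the smallest p did not pass. Mrps18a had the largest change (1.08, unadjusted p = 0.00803, limma-trend adjusted p = 0.404), with the lower total RNA and overlapping footprints given above. Mrps16, a small-subunit protein with a bacterial counterpart, had 15.4 and 28.9 CPM in KO against 41.8 and 39.3 CPM in WT total RNA and 52.5 and 43.0 CPM in KO against 45.9 and 44.7 CPM in WT footprints (0.98, limma-trend adjusted p = 0.42, and 0.54 to 1.41 with any 1 library left out). Mrps15, another small-subunit protein with a bacterial counterpart, was the 1 member on the lower side, with 54.5 and 54.5 CPM in KO against 39.4 and 50.1 CPM in WT total RNA and 42.2 and 41.9 CPM in KO against 51.4 and 62.6 CPM in WT footprints (−0.71, limma-trend adjusted p = 0.472). Mrps23 (0.82, adjusted p = 0.524) and Mrpl39 (0.58, adjusted p = 0.559) followed.

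**Figure D4:**
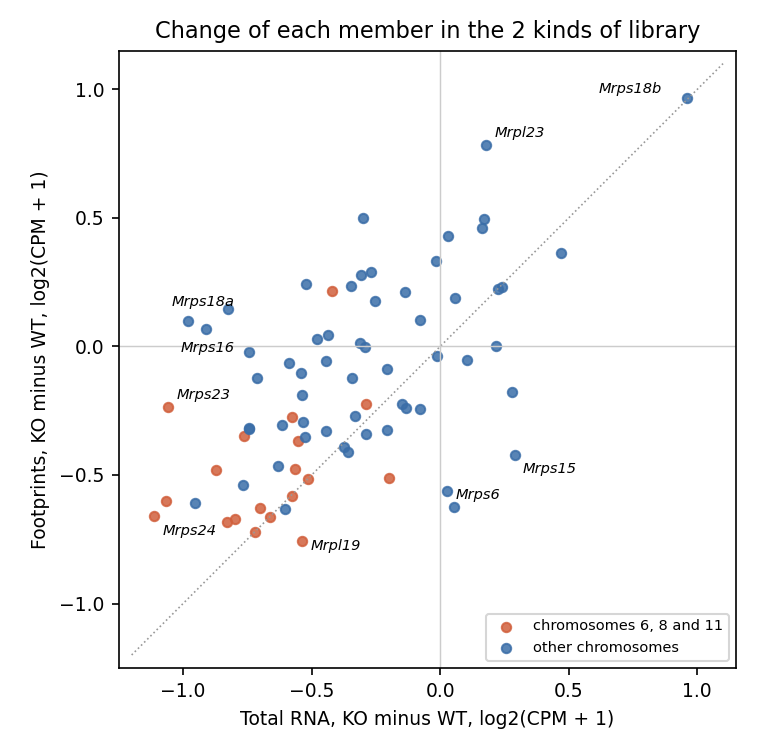
Change between KO and WT (log2(CPM + 1)) of each member in footprints against its change in total RNA, with the 19 members of chromosomes 6, 8 and 11 in orange, the other 58 in blue and equal change on the dotted line. Mrps18b lies at the upper right near the line, and Mrps18a, Mrps16 and Mrps23 lie well above the line with lower total RNA.

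Across members, the total RNA change and the footprint change correlated at r = 0.57 (Spearman's rho 0.53, n = 77), beside r = 0.61 over 11364 genes. Genes are not independent replicates and the values share library scaling, so this is a description.

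Within a genotype, most members had more footprints per total RNA than the median gene. The log2 ratio had a median of −0.09 in KO cells, against −0.79 over all genes, and of −0.40 in WT cells, against −0.87. The ratio lay above the median of all genes for 60 members in KO and 64 members in WT cells. In KO cells 17 members were called higher and 20 lower (8.66% and 52.3% of all genes), and in WT cells 12 higher and 29 lower (7.37% and 54.1%). Genes with transcripts as long as the members' middle 50% had medians of −0.36 in KO and −0.47 in WT cells. In WT cells this was close to the members' −0.40 and far from the −0.87 of all genes. In KO cells the median of genes of like length lay between the members' −0.09 and the −0.79 of all genes. Of these 3776 genes of like length, 1434 were called lower and 365 higher in WT cells, and 1285 lower and 466 higher in KO cells. Genes with a mean CPM in the members' middle range had medians of −0.99 in KO and −1.06 in WT cells, below those of all genes. The part of length or level in the members' ratios was not tested. The level of these ratios depends on Rn45s, the rRNA precursor, which took 38.3% and 42.6% of KO footprints and 46.3% and 41.3% of WT footprints but 2.49% to 6.46% of total RNA. With Rn45s left out of the library totals the medians turned positive, at 0.56 in KO and 0.36 in WT cells, against −0.21 over all genes in both.

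The order of members was alike in the 2 genotypes (r = 0.90, Spearman's rho 0.89, n = 77 genes, each genotype from its own libraries). Mrps6, a small-subunit protein, Mrpl43 and Mrpl57, large-subunit proteins specific to mitochondria, had the highest ratios in WT cells. Mrpl43 had 67.0 and 81.2 CPM in KO and 98.5 and 87.2 CPM in WT footprints, against 28.4 and 23.6 CPM in KO and 34.0 and 26.6 CPM in WT total RNA (log2 ratio 1.47 in KO and 1.59 in WT cells). Mrpl57 had ratios of 1.40 in KO and 1.41 in WT cells, and Mrps6 of 1.02 in KO and 1.61 in WT cells. In KO cells the highest ratio was that of Mrps12, at 1.73 in KO and 1.40 in WT cells.

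Mrpl1, which forms the stalk beside the exit site for tRNA, had the lowest ratio in WT cells, at −1.35 in KO and −2.15 in WT cells. It had 16.8 and 21.8 CPM in KO and 9.50 and 18.4 CPM in WT footprints, against 44.6 and 57.1 CPM in KO and 58.1 and 66.9 CPM in WT total RNA. Mrpl50 and Mrpl42, large-subunit proteins specific to mitochondria, followed at −1.64 and −1.40 in KO and −1.87 and −1.64 in WT cells. Mrpl42 shares 32.2% of its words with other genes, Mrps6 34.3% and Mrpl1 0.294%.

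**Figure D5:**
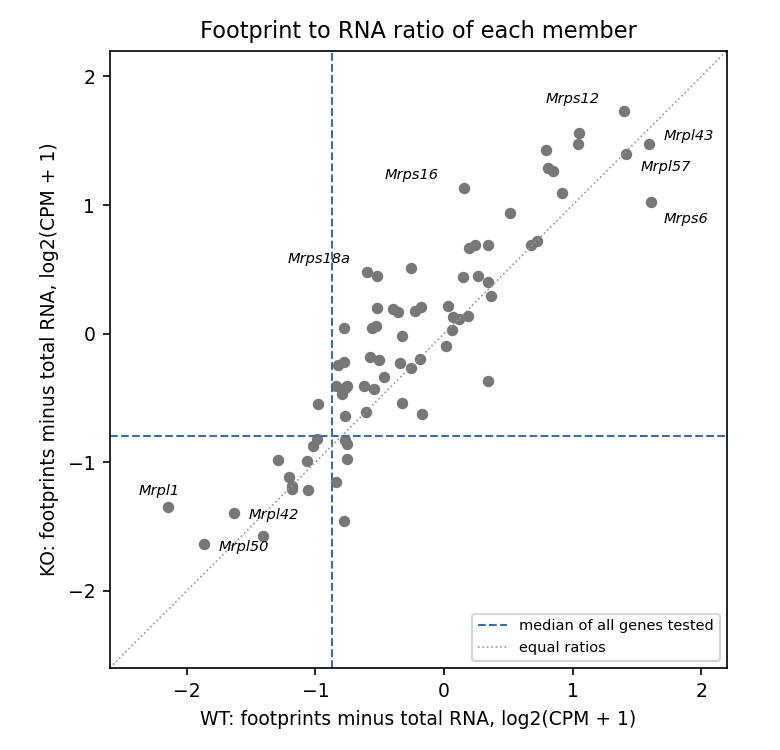
Log2 ratio of footprints to total RNA (log2(CPM + 1)) of each member in KO cells (vertical axis) against WT cells (horizontal axis), with the medians of all genes at −0.79 and −0.87 as dashed lines and equal ratios on the dotted line. The members spread from −2.15 (Mrpl1) to 1.61 (Mrps6) in WT cells, most lie above and to the right of the dashed lines, and 53 lie above the dotted line.

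Levels were compared between genes only per length of the chosen transcript. In total RNA per kilobase of transcript, the highest in KO cells was Mrps18b, at 90.5 CPM in KO and 46.0 CPM in WT cells. The highest in WT cells were Mrpl42, which had 82.9 CPM in KO and 117.3 CPM in WT cells, Mrpl52, a large-subunit protein specific to mitochondria, with 65.2 CPM in KO and 90.0 CPM in WT cells, and Mrps24, with 38.01 CPM in KO and 74.8 CPM in WT cells. The lowest were Mrpl48 with 1.94 CPM per kilobase in KO and 3.65 in WT cells, Mrpl57 with 4.50 and 5.84, and Mrps26 with 4.61 and 6.06. In footprints per kilobase of coding sequence, Mrpl17, with a bacterial counterpart, was highest at 263.0 CPM in KO and 223.4 CPM in WT cells. Mrpl1 was lowest in WT cells, at 19.1 in KO and 13.8 in WT cells. These orders rest on the annotated transcript chosen for each gene.

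Sharing of sequence with other genes touched many members. At least 1% of the 25-base words of 43 members also occur in transcripts of other genes, many of them processed pseudogenes, and Mrpl53 shares 100% with the readthrough gene Gm42688. The 34 members under 1% held 3 lower and 0 higher calls in total RNA (median −0.33) and 3 lower and 0 higher calls in footprints (median −0.05). The exons of 23 members overlap those of another gene, and the 54 without such overlap held 6 lower and 1 higher calls in total RNA (median −0.37).

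Other parts of the mitochondrial translation system were counted from lists of genes. Of 6 mitoribosomal proteins with other symbols, 1 fell in total RNA (16.7%, against 7.03% of all genes, with a list median of −0.45) and 0 in footprints. In footprints 2 had an unadjusted p below 0.05 in limma-trend, where 3613 of all 11624 genes had such a p. These were Dap3, higher in KO cells (0.43), and Aurkaip1, lower in KO cells (−0.44). The gene called in total RNA was Gadd45gip1, a large-subunit protein, with 31.1 and 28.6 CPM in KO against 62.9 and 47.7 CPM in WT total RNA (−0.86, limma-trend adjusted p = 0.0267). Dap3, a GTP-binding protein of the small subunit, had 99.9 and 137.8 CPM in KO against 120.6 and 120.6 CPM in WT total RNA and did not pass.

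Of 22 assembly factors, 2 fell (9.09%, against 7.03% of all genes) and 0 rose in total RNA (median −0.26). Eral1, a chaperone of small-subunit rRNA, had 6.92 and 17.7 CPM in KO against 39.9 and 41.9 CPM in WT total RNA (−1.78, limma-trend adjusted p = 0.00428), with footprints of 16.0 and 17.98 CPM in KO and 16.9 and 25.9 CPM in WT cells. Gtpbp10, a GTPase of large-subunit assembly, fell by 1.47 in total RNA (adjusted p = 0.00463). In footprints 2 fell (9.09%, against 8.28% of all genes). They were Malsu1, a factor of late large-subunit assembly (−0.82, adjusted p = 0.0168), and Mrm1, an rRNA methyltransferase (−0.95, adjusted p = 0.0454).

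Of 15 translation factors, 3 fell and 0 rose in total RNA (median −0.30), where 7.03% of all genes were called lower and 6.57% higher. In footprints 1 of the 15 fell, where 8.28% of all genes were called lower. Taco1, an activator of the translation of a cytochrome oxidase subunit, fell in both, with 3.07 and 5.25 CPM in KO against 18.2 and 21.96 CPM in WT total RNA (−2.06, limma-trend adjusted p = 0.00626) and −0.89 in footprints (adjusted p = 0.0237). Tsfm, the exchange factor of the elongation factor Tufm, fell by 1.27 (adjusted p = 0.0196) and Mtif2, an initiation factor, by 0.62 (adjusted p = 0.0358) in total RNA.

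Of 20 genes for mitochondrial aminoacyl-tRNA synthetases and amidotransferase subunits, 0 were called in total RNA (median −0.09). There 2 had an unadjusted p below 0.05, where 27.9% of all genes had such a p. In footprints 2 rose, where 10.7% of all genes were called higher. Yars2, the tyrosyl enzyme, had 36.1 and 33.2 CPM in KO against 19.3 and 16.9 CPM in WT footprints (0.90, limma-trend adjusted p = 0.00472). Lars2, the leucyl enzyme, had 8495 and 11100.0 CPM in KO against 1249 and 1797 CPM in WT footprints (2.70, limma-trend adjusted p = 1.84e-12). Its total RNA was spread over 2496 and 660.1 CPM in KO and 1073 and 6594 CPM in WT cells, far above the other genes of the list. Lars2 was also the 1 gene of the list called for translational efficiency (3.75, limma-trend adjusted p = 0.0225), a change that includes this spread total RNA. Which reads make up the Lars2 values was not tested. Of 11 genes for mitochondrial DNA expression, 1 fell in total RNA (9.09%, against 7.03% of all genes), with a list median of −0.79. It was Ssbp1, which binds single-stranded mitochondrial DNA, with 32.3 and 32.1 CPM in KO against 55.1 and 57.7 CPM in WT cells (−0.79, limma-trend adjusted p = 0.0288). Ssbp1 and Malsu1 lie on chromosome 6, Eral1, Mrm1, Mtif2 and Taco1 on chromosome 11 and Gadd45gip1 on chromosome 8.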

How the data were processed

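Total RNA and ribosome footprints of KO and WT cells were sequenced in 2 libraries per group. The tools listed in the submitters' processing notes are CASAVA 1.8.2, Bowtie2 and RSEM, with mm10 as the genome build. The deposited values are CPM, which the authors scaled to each library's total. Whether cultures were separate beyond the label of biological replicate is not given in the sources used here, so p-values measure the spread between these libraries. Taken back to reads, 62.3% to 94.8% of a library's member values were whole within 0.01 read, so no count test was run.

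Genes that averaged 1 CPM or more in the libraries compared were tested on log2(CPM + 1) with limma-trend (limma 3.58.1, R 4.3.3) and Benjamini-Hochberg adjustment over all genes. With 2 libraries per group an exact test cannot reach a small p. The members and lists were chosen with earlier results of these data known. Members are named when called in a comparison (or among the 5 smallest p), at the ends of the orders of level and ratio, or for their role. From each list up to 4 called genes are named, and Dap3, Aurkaip1, Sars2, Mrps18c, Mrps11, Mrpl46 and Mrpl17 were named after their values were seen. Genes encoded by mitochondrial DNA were not analysed here. Chromosomes, exons and transcripts come from the GRCm38 annotation, promoters from RefSeq. The tests were tried on simulated data in which 68% of 2-fold changes in total RNA, 66% in footprints and 37% in translational efficiency were recovered.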

Additional observations from a re-analysis of the deposited data

How the results depend on the processing

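Without a filter on low values, 0 members were called lower or higher in total RNA and in footprints, and 17 members were called lower for the ratio in WT and 13 in KO cells. A pseudocount of 0.1 left 5 members lower in total RNA. Calls over all genes moved too. In total RNA 930 of all 13222 genes were lower in the main fit, and 769 with this pseudocount. Without the filter 142 of 23818 were lower, and with chromosome medians removed 576 of 13222. The counts of members in footprints and for the ratio are given here without those over all genes. With chromosome medians removed 3 were lower in total RNA and 1 in footprints (median −0.0789), and without chromosomes 6, 8 and 11 the median in footprints was −0.0542 and 12 members were lower for the ratio in KO cells. The fit of all 8 libraries called 5 lower and 1 higher in footprints, and the trend with transcript length removed gave 4 higher there. With Rn45s left out, 14 were lower in footprints, where the median of all genes moved to −0.13, and the ratio had 7 lower, 38 higher and a median of 0.56 in KO and 4 lower, 29 higher and a median of 0.36 in WT cells. With the length trend removed the ratio had 8 lower and a median of 0.28 in KO and 10 lower, 26 higher and a median of 0.20 in WT cells. The cause of these shifts was not tested.

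With 1 library left out in turn, the members' median ran from −0.50 to −0.29 in total RNA. In footprints it ran from −0.252 to −0.0472, and was −0.105 without the second WT footprint library. For translational efficiency 0 were lower and 0 higher each time (median 0.11 to 0.30). The ratio had 16 to 21 lower and 12 to 16 higher in KO (median −0.19 to −0.03) and 18 to 31 lower and 10 to 12 higher in WT cells (median −0.52 to −0.23). A fit that leaves a group with 1 library assumes that it varies like the others.

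Replicate numbers did not pair the libraries across genotypes (correlations of −0.00184 between KO and WT total RNA and −0.0275 between KO and WT footprints). Between footprints and total RNA of 1 genotype the correlations were 0.0126 in KO and 0.0571 in WT cells. Over the members alone these were −0.172 in KO and 0.165 in WT cells. With the number as a replicate block, 14 members were lower and 1 higher in total RNA, where 1076 of all 13222 genes were lower and 980 higher. In footprints 3 members were lower and 2 higher. Removal of chromosome medians was not run for the ratio in WT cells, and the fit of all 8 libraries is an alternative only for total RNA and footprints. The members' median stayed negative in total RNA and in footprints under each of these settings. No member called in total RNA or footprints changed sign in that comparison, nor did the 5 with the smallest p for translational efficiency. At a median of 37 reads per member in the shallowest library, small changes were not detectable.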
